A study of Mus musculus with 35 samples.

Results

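The 10 genes described here encode tubulins: the alpha tubulins Tuba1a, Tuba1b, Tuba1c and Tuba4a, the beta tubulins Tubb2a, Tubb2b, Tubb3, Tubb5 and Tubb6, and the gamma tubulin Tubg1. They were taken by symbol, and all 10 were found among the 22609 gene symbols counted in each of 35 RNA-seq libraries. The libraries came from cells sorted from punch biopsies of the hind paw skin of C57 mice aged 8 to 16 weeks. Immune cells were CD45+ cells of wild-type mice. Fibroblasts carried tdTomato through the tamoxifen-inducible Col1a2-cre-ER, and keratinocytes carried it through the inducible K5-cre-ER, so both sorts were aimed at cells in which the Cre was active. The populations are named here by their sort. For each population there were females and males that got vehicle and males that got paclitaxel (PTX). The drug was injected intraperitoneally at 2 mg/kg, 2 times, with injections separated by 1 day, and the biopsies followed 6 days after the second injection. The vehicle male keratinocytes comprised 3 libraries and every other group 4. Whether libraries stand for different mice is not in the labels, and the p-values therefore measure a spread between samples that may be only technical.

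Microtubules are hollow polymers of alpha and beta tubulin pairs, and gamma tubulin sits in the ring complex that starts them. Paclitaxel binds beta tubulin inside the polymer and stabilises it, which blocks the mitotic spindle of dividing cells and impairs transport in the long axons of sensory neurons. Cells adjust their tubulin messages to the pool of free subunits: when free tubulin builds up, the TTC5 factor recognises the first residues of the nascent alpha or beta chain at the ribosome and the messenger RNA is degraded. The isotypes differ mainly in their acidic tails and in where they are expressed. Tubb5 and Tuba1b are broad housekeeping isotypes, Tubb3 is known as a neuronal isotype, Tuba1a is abundant in neurons and growing tissue, and Tubb6 is a minor isotype of many cell types.

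The total of gene counts was 13847475 to 18979776 per immune library, 13359088 to 20809036 per fibroblast library and 988712 to 12055718 per keratinocyte library, the lowest being replicate 2 of the vehicle females. The markers of the sort were found in every population, but not evenly. The 12 keratinocyte markers summed to 30430 to 42130 CPM (gene counts scaled to library size) in keratinocytes of vehicle males and to 5241 to 13660 after PTX. In the same keratinocyte libraries the 12 fibroblast markers summed to 241.7 to 638 CPM in vehicle males and 14350 to 22260 after PTX, the 12 immune markers to 17.4 to 59.8 and 1024 to 1549, and the 10 endothelial markers to 1.10 to 324 and 2196 to 3362. All 12 fibroblast markers were above 1 CPM in all 4 PTX keratinocyte libraries. In each of these libraries the fibroblast sum exceeded the keratinocyte sum. The immune libraries of vehicle males carried fibroblast markers at 5471 to 12490 CPM, against 656 to 1669 after PTX and 366 to 791.5 in vehicle females. Other markers were also higher in immune vehicle males than after PTX without overlap: 12 keratinocyte markers at 132.5 to 3067 CPM against 3.62 to 26.7, 10 endothelial markers at 125.9 to 767 against 0.264 to 53.0, and 10 pericyte and smooth muscle markers at 390 to 2813 against 5.0 to 31.6. Every tubulin comparison between these groups sits beside those differences, and their part in the results was not tested. Tubulins are made by all of these cell types.

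**Figure D1:**
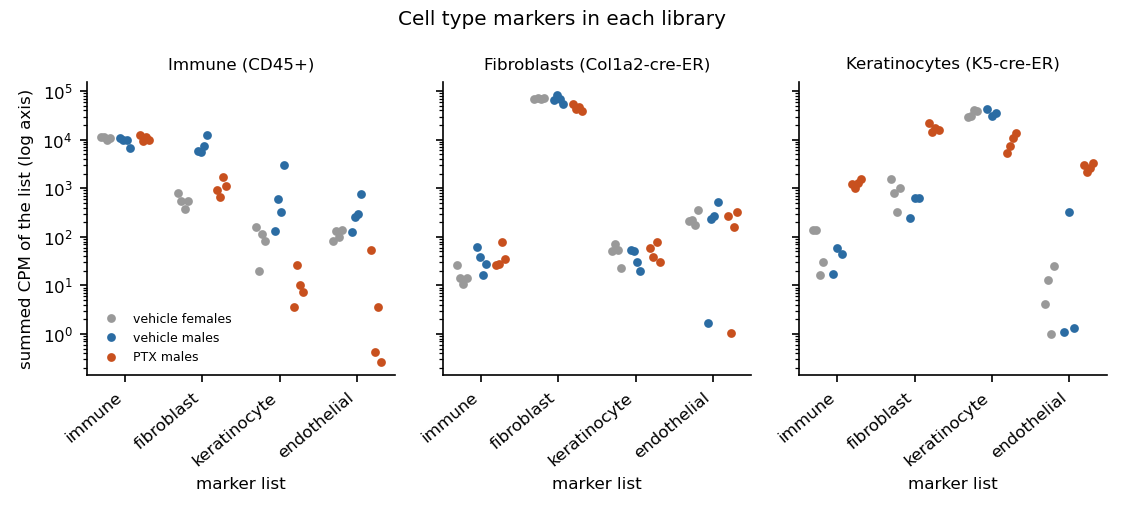
Summed level of the marker genes of 4 cell types (log10 axis, CPM) in each of the 35 libraries, by group; each point is 1 library. The 4 PTX keratinocyte libraries hold fibroblast markers at 14350 to 22260 CPM, far above the 3 vehicle male libraries at 241.7 to 638.

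Because the isotypes are near copies of each other, their sequences bear on what a uniquely placed 50-base read can count. The first 30 coding bases of 9 of the genes follow (GENCODE M21 transcripts on GRCm38), with the first 4 codons in capitals. In alpha and beta tubulin this stretch encodes the amino-terminal residues that autoregulation reads.
Tuba1a: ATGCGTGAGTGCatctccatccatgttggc
Tuba1b: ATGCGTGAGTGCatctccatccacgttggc
Tuba1c: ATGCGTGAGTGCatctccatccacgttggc
Tuba4a: ATGCGCGAGTGCatttcagtccatgtgggg
Tubb2a: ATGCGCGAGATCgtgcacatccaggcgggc
Tubb2b: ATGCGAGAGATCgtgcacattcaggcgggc
Tubb3: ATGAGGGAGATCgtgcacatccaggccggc
Tubb5: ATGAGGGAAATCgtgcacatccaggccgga
Tubg1: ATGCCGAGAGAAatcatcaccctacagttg
Tuba1b and Tuba1c were identical over these bases.

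Tuba1a and Tuba1b differed at 23 of 1356 coding bases, and Tubb2a and Tubb2b at 47 of 1338. The last 60 coding bases of the Tubb2 pair, which encode the acidic tail, show how little separates them, with the 3 differing bases in capitals.
Tubb2a: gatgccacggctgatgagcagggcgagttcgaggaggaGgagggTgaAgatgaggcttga
Tubb2b: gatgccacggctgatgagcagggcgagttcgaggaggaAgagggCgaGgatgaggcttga
Of all 50-base windows in the transcript, 17.8% of those of Tuba1b, 35.8% of Tuba1a, 39.0% of Tuba1c, 50.4% of Tubb2a and 60.7% of Tubb2b were found in no other gene. The share was 85.9% for Tubg1 and 98.9% or more for Tuba4a, Tubb3, Tubb5 and Tubb6. Genes that overlap a tubulin gene in position were not counted as other genes. These were Gm49450 on the same strand as Tuba1a and Tuba1b, Gm41396 opposite Tuba1b, and Stk16 opposite Tuba4a. Tuba1b shared 59.3% of its windows with Tuba1c, and Tubb2a shared 45.6% with Tubb2b. Reads without a unique place were left out: 42.2 to 47.8% per immune library, 34.9 to 47.7% per fibroblast library and 48.3 to 60.9% per keratinocyte library. Among fibroblasts they were 34.9 to 37.0% in vehicle males and 37.4 to 47.7% after PTX. Counts of Tuba1a, Tuba1b, Tuba1c, Tubb2a and Tubb2b are therefore lower limits that depend on their untranslated ends, and comparisons among these 5 are uncertain. The part of these percents in the comparisons of groups was not tested. Tuba4a overlaps Stk16 on the other strand; the kit marks strand, but the strand setting of the counting is not given in the sources used here.

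In vehicle skin the beta tubulin make-up of keratinocytes differed from that of immune cells and fibroblasts, which resembled each other. Immune cells and fibroblasts carried Tubb5 and Tubb6 side by side, whereas in keratinocytes Tubb5 made up nearly all reads of the 5 beta genes. Levels per kilobase of transcript, given as mean ± SD over libraries of both sexes, rank the genes by their uniquely placed reads. In immune cells (n = 8) Tubb6 was at 439.6 ± 139 CPM per kb and Tubb5 at 281 ± 35.3, which overlap within their spread. Tubb2a, at 80.9 ± 14.2 CPM per kb, followed well below Tubb5. The alpha tubulins lay close together, with Tuba1c at 56.2 ± 12.3, Tuba1a at 55.6 ± 10.8, Tuba1b at 51.3 ± 5.98 and Tuba4a at 39.3 ± 9.38 CPM per kb, and neighbours from Tubb2a to Tuba4a overlapped within 1 SD. Tubg1 at 6.97 ± 5.84, Tubb2b at 2.76 ± 1.99 and Tubb3 at 2.75 ± 3.21 CPM per kb were the lowest and could not be ordered.

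Tuba1a in fibroblasts had the highest alpha tubulin level of the vehicle populations. Their order (n = 8) was Tubb6 at 290 ± 75.9, Tubb5 at 202 ± 75.5 and Tuba1a at 134 ± 47.5 CPM per kb, neighbours that overlapped within 1 SD. Tubb2a at 38.8 ± 22.2, Tuba1b at 35.2 ± 9.90, Tuba1c at 26.3 ± 12.3 and Tuba4a at 15.5 ± 9.41 CPM per kb formed a lower tier. Tubg1 at 11.6 ± 18.6, Tubb2b at 2.96 ± 3.67 and Tubb3 at 1.69 ± 3.06 CPM per kb were again the lowest.

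In keratinocytes (n = 7) Tubb5 stood alone by this measure at 374 ± 161 CPM per kb, clear of the next gene by more than 1 SD of each. Tuba1b at 51.5 ± 19.3, Tuba4a at 49.8 ± 43.1, Tubg1 at 48.4 ± 51.4, Tubb6 at 35.6 ± 47.1 and Tuba1c at 30.8 ± 20.3 CPM per kb overlapped, as did Tubb2a at 14.4 ± 21.7 and Tuba1a at 14.1 ± 31.3. The SDs of Tubg1, Tubb6, Tubb2a and Tuba1a exceed their means. Tubb2b had 4 reads and Tubb3 had 2 in all 7 vehicle keratinocyte libraries, of 55968253 counts in genes. Dividing by the kilobases of single-gene windows instead of the full length changed the order, also between alpha and beta tubulins. In immune cells Tuba1b came to 297 CPM per kb of such windows, against 286 for Tubb5, 160 for Tuba1a and 148 for Tuba1c. In fibroblasts Tuba1a came to 385.6 ± 136.5, against 298 ± 78.1 for Tubb6 and 206 ± 77.0 for Tubb5. In keratinocytes Tuba1b at 298 ± 112 and Tubb5 at 381.5 ± 164 overlapped, so Tubb5 did not stand alone by that measure.

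**Figure D2:**
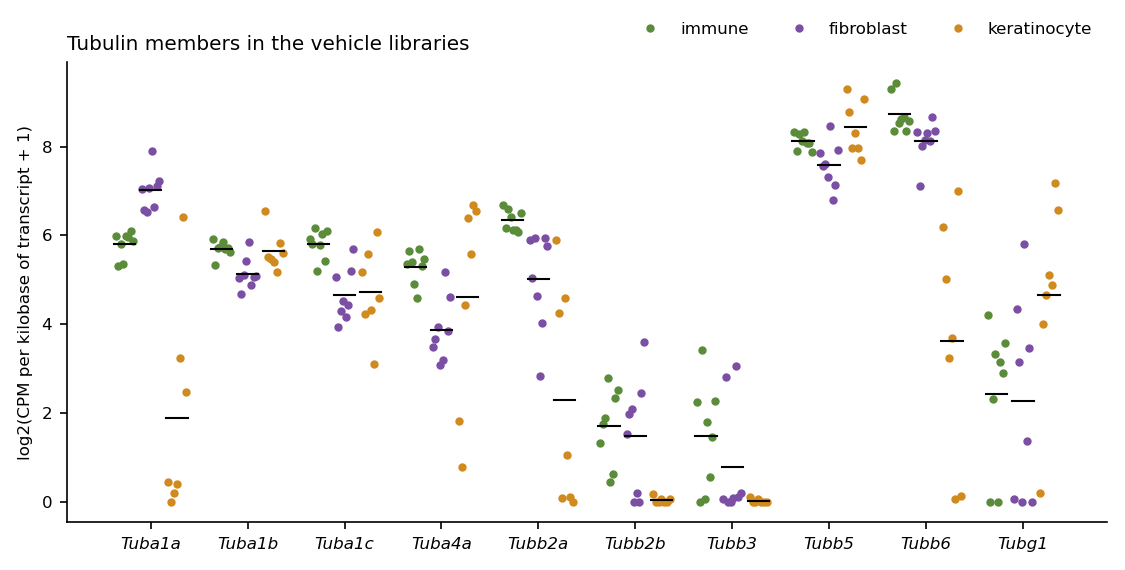
Level of each tubulin gene in vehicle libraries of the 3 populations (log2 of CPM per kb of transcript + 1); points are libraries and lines are means. Tubb5 is high in all 3 populations, whereas Tubb6, Tubb2a and Tuba1a fall away in keratinocytes and Tubb2b and Tubb3 are near 0 there.

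The shares of reads within a library, which do not depend on the scaling between libraries, showed the same make-up. Of the reads of the 5 beta genes, called beta reads here, Tubb5 took 45.5 ± 5.01% in vehicle immune cells, 47.4 ± 10.96% in fibroblasts and 91.9 ± 10.1% in keratinocytes. Tubb6 took 45.9 ± 5.0%, 46.0 ± 10.6% and 6.37 ± 10.2% respectively. The lowest Tubb5 share among the vehicle keratinocyte libraries was 71.0%, in a vehicle male, and the highest of all immune and fibroblast vehicle libraries was 62.3%, so the ranges did not overlap. Tubb1, Tubb4a and Tubb4b (Tubb4 and Tubb2c in the files) are not among the 5. Counted over all 8 beta genes, a denominator chosen after seeing the data, Tubb5 took 42.2 ± 4.25%, 42.8 ± 10.4% and 82.0 ± 11.96%, and Tubb4b took 11.1 ± 6.15% in keratinocytes. Over the 8 genes the ranges of Tubb5 overlapped narrowly, with a lowest keratinocyte value of 56.7% and a highest fibroblast value of 56.9%. Among alpha tubulin reads Tuba1a took 59.8 ± 7.48% in fibroblasts, 24.3 ± 3.94% in immune cells and 4.58 ± 8.35% in keratinocytes. Immune cells spread their alpha reads evenly over Tuba1a, Tuba1b, Tuba1c and Tuba4a, each with 22 to 26.95%. In keratinocytes Tuba4a took 38.1 ± 28.5% and Tuba1b 36.0 ± 22.4%, with Tuba4a ranging from 1.77 to 68.2% between libraries. Of member reads, alpha tubulins together gave 20.1% (immune), 26% (fibroblasts) and 22% (keratinocytes). All these shares are of uniquely placed reads. Only 17.8 to 39.0% of the windows of Tuba1a, Tuba1b and Tuba1c were found in 1 gene, against 98.9% or more for Tuba4a, Tubb5 and Tubb6. The shares therefore understate those 3 alpha genes and do not give the true balance of alpha and beta messages.

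**Figure D3:**
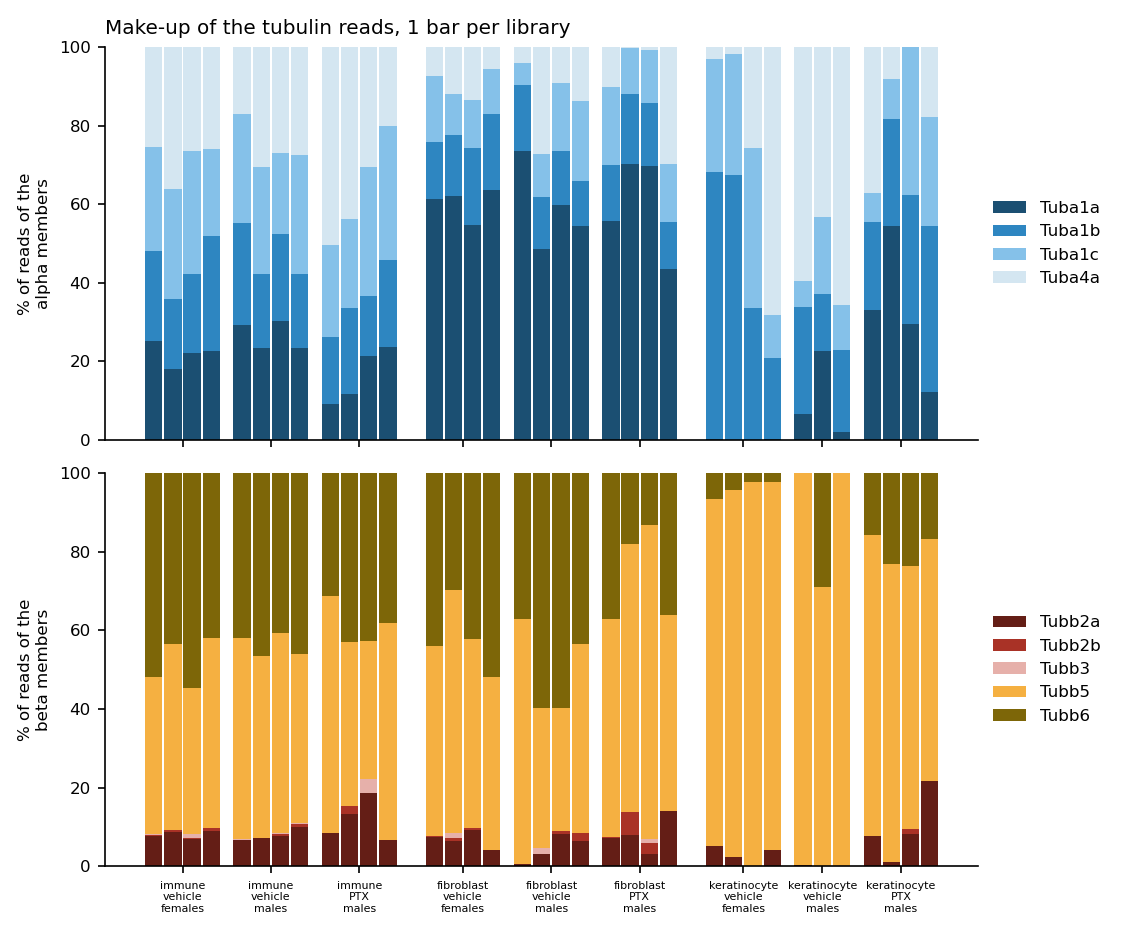
Percent of the reads of the 4 alpha genes (top) and of the 5 beta genes (bottom) taken by each gene, with 1 stacked bar per library, by group. Tubb5 fills on average 93.2% and 90.3% of beta reads in the keratinocytes of vehicle females and males, and 70.1% after PTX.

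The populations were compared over the vehicle libraries with edgeR's quasi-likelihood test and Benjamini-Hochberg adjustment over 14104 genes. Tuba1a, Tubb2a, Tubb2b, Tubb3 and Tubb6, 5 of the 10 tubulin genes, were higher in immune cells than in keratinocytes, and these 5 were also higher in fibroblasts than in keratinocytes. Tubb5 was lower in fibroblasts than in keratinocytes, and no tubulin gene was lower in immune cells. The background is high: 32.1% of all genes passed between immune cells and keratinocytes (23.5% as higher and 8.61% as lower in immune cells) and 31.1% between fibroblasts and keratinocytes (20.6% as higher and 10.5% as lower in fibroblasts). The median log2 difference of the 10 tubulin genes was 2.23 for immune cells over keratinocytes, against 0.477 over all genes, and 1.37 for fibroblasts over keratinocytes, against 0.397. Fewer cells of a type and less RNA per cell cannot be told apart in such sorted bulk samples.

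Tuba1a was at 100.3 ± 19.5 CPM in vehicle immune cells, 242 ± 85.6 in fibroblasts and 25.4 ± 56.5 in keratinocytes. Its log2 difference was 4.30 ± 0.61 (SE, adjusted p = 6.74e-06) for immune cells over keratinocytes and 5.56 ± 0.66 (adjusted p = 3.9e-07) for fibroblasts over keratinocytes. The keratinocyte side of that difference was in the females: their 4 libraries held 5, 0, 3 and 7 reads, whereas the 3 male libraries were at 20.1, 212 and 10.03 CPM within the population. Among males alone, Tuba1a was 0.94 higher in immune cells on the log2 scale (adjusted p = 0.56) and 2.25 higher in fibroblasts (adjusted p = 0.109).

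Tubb2a showed the opposite split. It was 4.68 ± 0.998 higher in immune cells than in keratinocytes (adjusted p = 0.000871) and 3.61 ± 0.94 higher in fibroblasts (adjusted p = 0.00502). Keratinocytes of vehicle males held 26, 1 and 0 reads of Tubb2a, while those of vehicle females were at 101, 33.6, 0.108 and 45.6 CPM. Among females alone the differences were 1.77 (adjusted p = 0.29) and 0.84 (adjusted p = 0.673), neither past the threshold.

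Tubb6 was 3.6 ± 0.92 higher in immune cells (adjusted p = 0.00415) and 3.0 ± 0.89 higher in fibroblasts (adjusted p = 0.0121) than in keratinocytes. Its 8 vehicle immune libraries ran from 541.6 to 1129 CPM and its 8 vehicle fibroblast libraries from 201 to 557.5 CPM. In keratinocytes the female libraries were at 135, 63.3, 18.5 and 25.6 CPM and the males at 0.0876, 307 and 0.186 CPM within the population. On the scale shared by all vehicle libraries the highest keratinocyte library was at 221.7 CPM and the lowest fibroblast library at 240.6, so the ranges did not overlap on that scale. Scaled by library size alone, the keratinocyte and fibroblast ranges overlapped. Among males alone, the differences in Tubb6 did not pass (adjusted p = 0.221 and 0.236).

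Tubb2b and Tubb3 were rare everywhere and all but missing in keratinocytes. The vehicle immune libraries held 832 reads of Tubb2b against 4 in keratinocytes, a ratio per gene count of 85.3 (33.2 to 314, a 95% counting interval). For Tubb3 the reads were 706 against 2, a ratio of 145 (39.9 to 1197). For fibroblasts over keratinocytes the ratios were 72.04 (28.0 to 265) for Tubb2b and 73.8 (20.3 to 612) for Tubb3; these intervals cover counting error only. All 4 differences passed, with adjusted p of 0.00826 and 0.0152 in immune cells and 0.0081 and 0.0212 in fibroblasts. The Tubb3 call in fibroblasts rested on few libraries: 9.28 and 10.9 CPM in 1 female and 1 male library, and at most 0.192 in the other 6. Leaving out the fibroblast library of vehicle female 2 gave an adjusted p of 0.133, leaving out that of vehicle male 2 gave 0.062, and leaving out any keratinocyte library of vehicle males gave 0.0535 to 0.0574.

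Tubb5 was lower in fibroblasts than in keratinocytes by 0.86 ± 0.28 on the log2 scale (adjusted p = 0.0229). Its vehicle levels were 536 ± 200 CPM in fibroblasts, 743 ± 93.6 in immune cells and 991 ± 426 in keratinocytes, with overlapping ranges. Without the keratinocyte library of vehicle male 3 the adjusted p was 0.11, and without that of vehicle female 1 it was 0.0577. Between immune cells and keratinocytes Tubb5 did not pass (-0.39 ± 0.28, adjusted p = 0.328).

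No tubulin gene passed between immune cells and fibroblasts, where 21.2% of all genes did. At an unadjusted p under 0.05 there were 3, against 30% of all genes: Tuba1a, lower in immune cells by a log2 difference of -1.26 ± 0.49 (adjusted p = 0.0725), Tuba1c at 1.11 ± 0.51 (adjusted p = 0.139) and Tuba4a at 1.41 ± 0.63 (adjusted p = 0.124). DESeq2 called 1 tubulin gene and limma with voom quality weights called 7. The share of all genes that these tools called is not given here, so those counts have no background to be read against. Leaving out the immune libraries of vehicle males, which held fibroblast markers, left 0 called between immune cells and fibroblasts and 5 between immune cells and keratinocytes; this setting was chosen after seeing the data. The PTX keratinocyte libraries enter none of these comparisons.

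The question behind the PTX groups is whether the target's own genes changed 6 days after the drug. No tubulin gene passed the test between PTX and vehicle males in any population. Of all genes, 5.51% of 12131 passed in immune cells, 0.0184% of 10857 in fibroblasts and 1.45% of 10939 in keratinocytes. At an unadjusted p under 0.05 the tubulin genes counted 0 of 10 in immune cells, 0 of 9 tested in fibroblasts and 1 of 8 tested in keratinocytes, against 20.1%, 8.07% and 14.8% of all genes. Tubb3 in fibroblasts, and Tubb2b and Tubb3 in keratinocytes, were too low to be tested. The summed level of the 10 genes was 1863 ± 101 CPM in immune cells of vehicle males and 2067 ± 258 after PTX, 1287 ± 271 and 1278 ± 61.8 in fibroblasts, and 2012 ± 663 (n = 3) and 1506 ± 290 in keratinocytes (n = 4 otherwise), each pair overlapping. The direction in immune cells turned with the scaling: by library size alone the sums were 2060 ± 79.8 CPM in vehicle males and 1783 ± 236 after PTX.

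**Figure D4:**
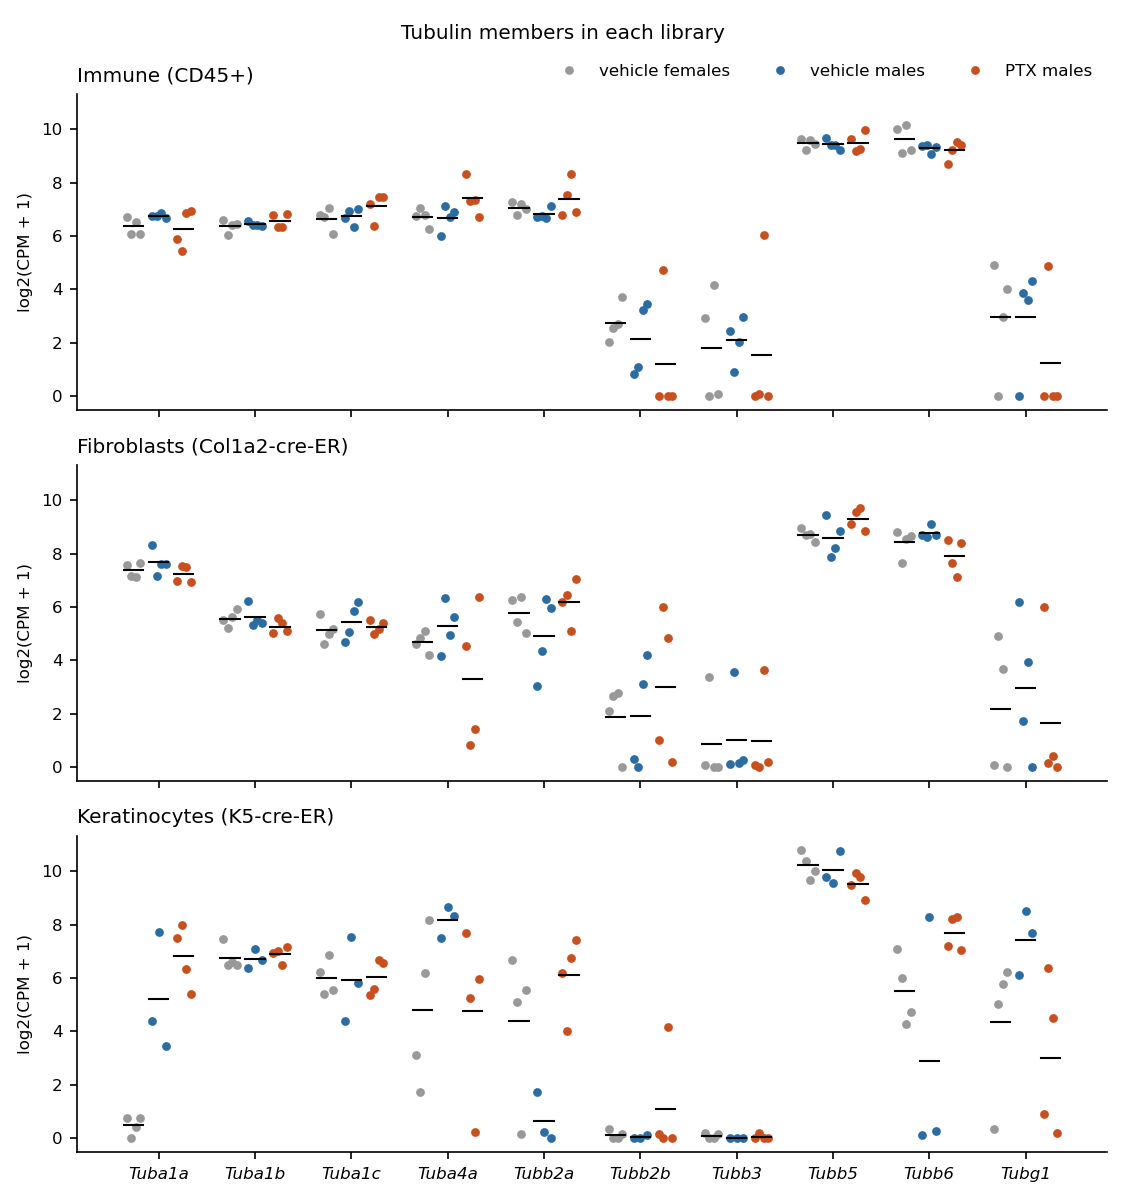
Level of each of the 10 tubulin genes in every library (log2 of CPM + 1, scaled within each population), by group; each point is 1 library and the line is the group mean. Most genes overlap between vehicle and PTX males; Tubb2a in keratinocytes and Tubb6 in fibroblasts do not.

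In immune cells the abundant beta tubulins Tubb5 and Tubb6 did not pass the test, and the intervals of their differences were the narrowest of the 10. Tubb5 was at 809, 679, 677 and 602 CPM in vehicle males and 787, 576, 607 and 990.4 after PTX. Tubb6 was at 661, 682.5, 542 and 643 CPM in vehicle males and 409, 593, 737 and 686.5 after PTX. In both genes there were PTX libraries below, inside and above the vehicle range. The log2 difference was 0.10 ± 0.21 for Tubb5 (adjusted p = 0.924), with 2 SE on each side reaching from -0.31 to 0.51, and -0.06 ± 0.26 for Tubb6 (adjusted p = 0.97), reaching from -0.58 to 0.46.

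Tuba4a, an alpha tubulin whose gene encodes no final tyrosine, had the lowest p of the tubulin genes in immune cells. It was at 62.5, 137, 103.5 and 118 CPM in vehicle males and 317, 158, 162.5 and 103 after PTX. Of the PTX libraries 3 were above all vehicle libraries, and 1 was inside their range. The log2 difference was 0.82 ± 0.39 (adjusted p = 0.277 by edgeR's quasi-likelihood test). Tubb2a was at 104, 105, 101.5 and 139 CPM in vehicle males and 110.4, 185, 321 and 119.5 after PTX, a log2 difference of 0.71 ± 0.36 (adjusted p = 0.309). The close beta isotype Tubb4b, listed under its older symbol Tubb2c and not among the 10, differed by 0.90 ± 0.43 (adjusted p = 0.266).

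Tuba1a went the other way in level and did not pass: 107, 106, 116 and 100.1 CPM in vehicle males and 57.3, 42.7, 114 and 121 after PTX, with PTX libraries below and above all vehicle libraries (log2 difference -0.36 ± 0.42, adjusted p = 0.827). As shares of alpha reads, Tuba1a was at 26.6 ± 3.66% in vehicle males and 16.6 ± 7.17% after PTX, and Tuba4a at 25.5 ± 5.84% and 36.2 ± 13.5%, with overlapping ranges. Tuba1b (0.14 ± 0.36) and Tuba1c (0.41 ± 0.36) did not pass either.

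The 3 rare genes of the immune libraries were present or absent library by library. Tubb3 was at 4.41, 0.842, 3.11 and 6.83 CPM in vehicle males and at 0, 0.0653, 64.1 and 0 after PTX. Tubb2b was at 0.751, 1.122, 8.45 and 9.80 CPM in vehicle males and at 0, 25.4, 0 and 0 after PTX. Tubg1 was at 0, 13.3, 11.1 and 19.1 CPM in vehicle males and at 0, 28.5, 0 and 0 after PTX. In each, 1 PTX library held nearly all reads, and the fitted differences had an SE of over 2 on the log2 scale (2.08 ± 2.42 for Tubb3, adjusted p = 0.82). Without PTX library 2, Tubb2b had no read in the other 3 PTX libraries and passed as lower (adjusted p = 0.0374). The 12 neuron markers summed to at most 0.198 CPM in any immune PTX library, so the PTX library with Tubb3 at 64.1 CPM held none of them above 1 CPM. The number of genes with more than 10 reads was 5956 to 8700 in immune PTX libraries and 11000 to 12813 in those of vehicle males; the part of this difference in these values was not tested.

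In fibroblasts the beta tubulin balance leaned from Tubb6 towards Tubb5 in level, without passing the test. Tubb6 was at 411.5, 394, 557.5 and 412 CPM in vehicle males and 363, 197, 138 and 335 after PTX, all 4 PTX libraries below all 4 vehicle libraries. Its log2 difference was -0.78 ± 0.39 (adjusted p = 0.66). Groups that do not overlap with PTX lower were found for 1.81% of all genes. Tubb5 was at 693, 234, 292 and 459 CPM in vehicle males and 544, 744, 826 and 461 after PTX, which overlap (0.62 ± 0.36, adjusted p = 0.77).

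As shares of beta reads in fibroblasts, Tubb6 was at 50.0 ± 11.6% in vehicle males and 26.1 ± 12.2% after PTX, and Tubb5 at 44.4 ± 14.0% and 63.3 ± 13.4%. The Tubb6 shares of the 2 groups overlapped narrowly, with a lowest vehicle value of 37.0% and a highest PTX value of 37.1%. Over all 8 beta genes they did not, at 33.8% and 33.65%. Vehicle females, at 42.0 ± 9.14% for Tubb6 and 50.5 ± 7.69% for Tubb5, lay between them. The fibroblast markers summed to 55110 to 83970 CPM in vehicle males and 38240 to 53730 after PTX, and the 10 pericyte and smooth muscle markers to 261 to 949 and 275 to 2867; the part of these differences was not tested.

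The other fibroblast values were wide. Tuba1a, the main alpha tubulin there, was at 318, 143, 194 and 192 CPM in vehicle males and 123, 184.5, 178 and 121 after PTX, overlapping at -0.48 ± 0.46 (adjusted p = 0.959). Tuba4a was at 17.1, 80.0, 29.6 and 48.1 CPM in vehicle males and 22.2, 0.79, 1.68 and 82.2 after PTX, with 2 PTX libraries far below the vehicle range, 1 inside it and 1 just above it (-0.71 ± 1.37). Tubb2a (0.95 ± 0.96), Tubb2b (1.87 ± 2.20), Tuba1b (-0.38 ± 0.96), Tuba1c (-0.30 ± 1.03) and Tubg1 (-0.49 ± 2.42) did not pass. The median over the 9 tested tubulin genes was -0.384, against 0.0764 over all genes.

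In keratinocytes Tubb2a showed the largest difference of any tubulin gene tested. Vehicle males held 26, 1 and 0 reads and PTX males 741, 117, 1335 and 1209, which is 2.28, 0.18 and 0 CPM against 71.97, 15.1, 107 and 172 CPM. All PTX libraries were above all vehicle male libraries, as they were for 9.15% of all genes. The log2 difference was 6.76 ± 2.73, which did not pass after adjustment (adjusted p = 0.256), although DESeq2 called it (adjusted p = 0.000958). Against vehicle females, at 101, 33.6, 0.108 and 45.6 CPM, the PTX libraries overlapped and the log2 difference was 1.02 (adjusted p = 0.999).

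The same 4 PTX libraries carried markers of fibroblasts, immune cells and endothelium at sums above all vehicle males, which held them at lower levels. The endothelial sum of 324 CPM in vehicle male 2 came from Pecam1, as the other 9 markers were under 1 CPM in all vehicle males. That library had 4511 genes with more than 10 reads, against 8846 and 7276 in the other vehicle males. Ptprc, which encodes CD45, was at 149 to 240 CPM after PTX and at most 0.79 in vehicle males, and the collagen gene Col1a2 was at 1441 to 3868 CPM and at most 1.63. Tubb2a was at 101.5 to 139 CPM in the immune cells of vehicle males and at 7.26 to 76.9 CPM in their fibroblasts, each scaled within its population. The part of the other cell types in the keratinocyte result was not tested.

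Tuba1a and Tubb6 shared a pattern among male keratinocytes: vehicle male 2 stood at the PTX level and the other vehicle males below all PTX libraries. Tuba1a was at 20.1, 212 and 10.03 CPM in vehicle males and 180, 254, 79.8 and 41.6 after PTX, which overlap because of 1 vehicle library (0.78 ± 1.60, adjusted p = 0.986). Against vehicle females, with 0 to 7 reads, Tuba1a was 8.16 higher (adjusted p = 0.0448). That contrast differs in sex as well as in drug, which cannot be told apart there. Vehicle females were themselves at a log2 difference of -7.38 from vehicle males. Tubb6 was at 0.0876, 307 and 0.186 CPM in vehicle males and 147, 297, 310.0 and 132 after PTX, with the same vehicle male 2 standing at the PTX level (1.11 ± 1.68, adjusted p = 0.97). Without that library Tubb6 was 10.50 higher on the log2 scale (adjusted p = 0.0135).

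The remaining keratinocyte genes did not pass the test. Tubb5 was at 879, 754 and 1737 CPM in vehicle males and 705.5, 968, 871 and 487.5 after PTX (-0.57 ± 0.38, adjusted p = 0.612). Tuba4a was at 178, 402 and 321 CPM in vehicle males and 202, 37.5, 0.16 and 60.8 after PTX (-2.0 ± 1.52, adjusted p = 0.727), with 1 PTX library inside the vehicle range and 3 below it. Tubg1 was at 68.1, 360 and 207 CPM in vehicle males and 0.874, 81.1, 21.4 and 0.142 after PTX (-3.03 ± 1.87, adjusted p = 0.547), again with 1 library inside the range. Tuba1b was at 80.8, 135 and 102 CPM in vehicle males and 123, 126, 88.2 and 144 after PTX (0.18 ± 1.09), with 1 PTX library above all vehicle libraries. Tuba1c was at 20.1, 183 and 55.6 CPM in vehicle males and 40.01, 47.45, 101 and 93.65 after PTX, all inside the vehicle range (-0.29 ± 1.44).

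The Tubb5 share of beta reads in keratinocytes was 90.3 ± 16.6% in vehicle males (71.0 to 99.98%) and 70.1 ± 7.13% after PTX (61.6 to 76.3%), with 1 vehicle library inside the PTX range. Vehicle females were at 93.2 ± 3.91%, all above the PTX libraries. Tubb6 took 19.9 ± 4.18% and Tubb2a 9.72 ± 8.63% after PTX. In the fibroblast and immune libraries of vehicle males, whose markers the PTX keratinocyte libraries also held, Tubb6 took 50.0 ± 11.6% and 43.7 ± 2.90% of beta reads. The part of such cells in the keratinocyte shares was not tested.

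**Figure D5:**
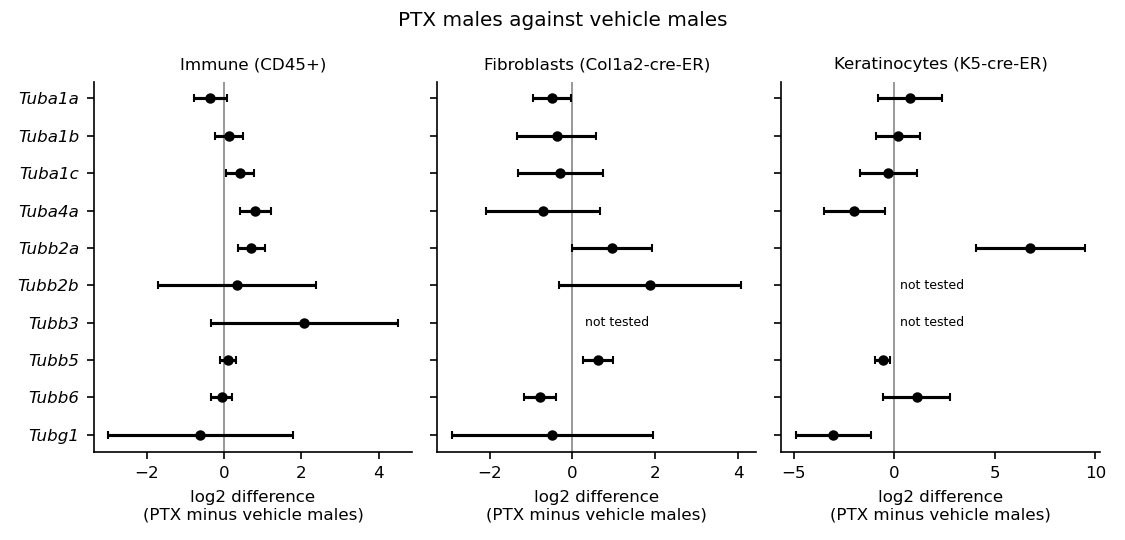
Log2 difference between PTX and vehicle males for each tested tubulin gene in immune cells, fibroblasts and keratinocytes, with bars of 1 SE on each side; the x axes differ between panels. The bars of Tubb5 are short (0.10 ± 0.21 in immune cells), and that of Tubb2a in keratinocytes sits at 6.76 ± 2.73.

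Whether the PTX differences themselves differed between populations was tested with an interaction term. Only Tubb2a passed, and only between immune cells and keratinocytes, with a difference of differences of -5.93 ± 1.81 (adjusted p = 0.0384), where 9.6% of all genes passed. Between fibroblasts and keratinocytes it was -5.79 ± 2.26 (adjusted p = 0.15), and between immune cells and fibroblasts -0.16 ± 0.95. No other tubulin gene passed, where 3.51% of all genes passed between immune cells and fibroblasts and 3.31% between fibroblasts and keratinocytes. The Tubb2a call was lost in 8 of 15 fits that left out 1 library, with adjusted p of up to 0.0889, and with voom quality weights (adjusted p = 0.0777). The libraries were immune vehicle males 2, 3 and 4, immune PTX males 2 and 4, keratinocyte vehicle males 2 and 3, and keratinocyte PTX male 4.

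Vehicle females and vehicle males give the size of tubulin differences without the drug. No tubulin gene passed in any population, where the share of all genes that passed was 0.354% (immune), 0.0184% (fibroblasts) and 0.00914% (keratinocytes). In keratinocytes Tuba1a was lower in all 4 females than in all 3 males, by a log2 difference of -7.38 ± 2.0 (adjusted p = 0.591), and 2.34% of all genes were lower without overlap there. Tubb2a was higher in females by 5.74 ± 2.59 (adjusted p = 0.597), with 1 female library at 0.108 CPM inside the male range. DESeq2 called both (adjusted p = 1.86e-06 and 0.0166). The PTX differences of these genes in keratinocytes were 0.78 for Tuba1a and 6.76 for Tubb2a, against the same vehicle males. Of the other 6 genes tested in keratinocytes, Tubg1 was at -2.40 ± 1.84, Tuba4a at -1.68 ± 1.51, Tubb6 at -0.76 ± 1.62, Tuba1c at -0.32 ± 1.44, Tubb5 at 0.15 ± 0.38 and Tuba1b at 0.071 ± 1.08. In immune cells the female minus male differences of the 10 genes ran from -0.38 ± 0.42 for Tuba1a to 0.63 ± 2.33 for Tubb3, with Tubb5 at 0.042 ± 0.21 and Tubb6 at 0.39 ± 0.26. In fibroblasts those of the 9 tested genes ran from -1.14 ± 2.44 for Tubg1 to 0.48 ± 0.96 for Tubb2a, with Tubb5 at 0.0054 ± 0.36 and Tubb6 at -0.31 ± 0.39. The groups of both populations overlapped for every tested gene.

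Genes that act on tubulin were taken as lists. In immune cells after PTX, 1 of 21 tested folding genes, 1 of 15 modification genes and 1 of 13 genes of the gamma tubulin ring complex were lower, and none was higher, against 4.56% of all genes that were lower. The first was Tbcel, a tubulin cofactor-like gene, at 2.05 to 11.7 CPM in vehicle males and at most 0.0773 after PTX (adjusted p = 0.0313). The second was Agtpbp1, which trims glutamate chains from tubulin tails, at 0.976 to 23.7 CPM and at most 0.619 (adjusted p = 0.0372). The third was Mzt2, a small subunit of the ring complex, at 13.8 to 18.9 CPM and at most 0.163 (adjusted p = 0.0117). The calls of Tbcel and Agtpbp1 were each lost in 6 of 8 fits without 1 library (adjusted p up to 0.075 and 0.0911), and that of Mzt2 in none. With limma and voom quality weights none of the 3 passed (adjusted p = 0.27 for Tbcel, 0.343 for Agtpbp1 and 0.228 for Mzt2). Immune PTX libraries had 5956 to 8700 genes with more than 10 reads, against 11000 to 12813 in those of vehicle males. The vehicle males also held more markers of fibroblasts, keratinocytes and endothelium. The part of these differences in the 3 calls was not tested.

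None of 18 tested microtubule-associated, 9 destabilising or severing, and 7 autoregulation genes passed in immune cells. The medians of the folding and associated lists were 0.127 and 0.106, close to 0.0964 over all genes. Of 22 mitosis genes 3 were lower: the spindle motor genes Kif20a and Kif11 and the kinase gene Aurkb. Kif20a was at 2.62 to 12.6 CPM and Aurkb at 1.56 to 11.4 CPM in vehicle males, and both had no read in any immune PTX library (adjusted p = 0.0199 and 0.0284; 0.0525 and 0.0656 without vehicle male 2, and 0.0648 for Aurkb without vehicle male 3). The Kif11 call (adjusted p = 0.0419) was lost in 7 of 8 fits without 1 library, and voom quality weights lost all 3 calls (adjusted p = 0.199 for Kif20a, 0.284 for Aurkb and 0.374 for Kif11). Another 4 of the mitosis genes had no read there, so no median is given. In all, 3 of the 22 had a positive difference, 10 had an unadjusted p under 0.05 (20.1% of all genes did), and 11 were under 1 CPM in every immune PTX library. The summed level of the 22 was 168.7 to 312 CPM in vehicle males, 80.8 to 151 after PTX and 1397 to 3659 in the keratinocytes of vehicle males. The part in these values of the keratinocyte markers that the immune vehicle males held, and of the fewer genes read after PTX, was not tested. Mki67, a proliferation marker named after its values were seen, was at 20.1 to 126 CPM after PTX and 44.0 to 78.9 in vehicle males.

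With edgeR no gene of any list passed after PTX in fibroblasts or keratinocytes. The lowest p in fibroblasts were those of Cct5, a subunit of the CCT chaperonin that folds tubulin (1.18 ± 0.43, adjusted p = 0.468), and Map7d1 (1.13 ± 0.43, adjusted p = 0.474). In keratinocytes the 21 folding genes had a median of -0.713, against 0.0705 over all genes, with Cct8 at -1.77 ± 0.60 (adjusted p = 0.198, and 0.0181 with voom quality weights). Map1b, which encodes a microtubule-associated protein best known from neurons, was at 0.371 to 13.5 CPM in the keratinocytes of vehicle males and 40.96 to 591 after PTX (5.65 ± 1.97, adjusted p = 0.205, and 0.000802 with DESeq2). It was at 264 to 526.5 CPM in the fibroblasts of vehicle males, whose markers the PTX keratinocyte libraries held. The part of such cells in the Map1b difference was not tested.

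Between vehicle populations many folding genes were lower outside keratinocytes. Of the 21 folding genes 9 were lower and 1 higher in fibroblasts than in keratinocytes (median -1.04, against 0.397 over all genes), and 4 lower and 1 higher in immune cells (median -0.624, against 0.477). Of all genes, 10.5% were lower and 20.6% higher in fibroblasts than in keratinocytes, and 8.61% lower and 23.5% higher in immune cells. The CCT subunit Tcp1 was among both, with log2 differences of -1.38 ± 0.33 (adjusted p = 0.00215) and -1.03 ± 0.32 (adjusted p = 0.0173; neither sex alone passed in immune cells). The exception was the cofactor gene Tbcc, with log2 differences of 4.28 ± 1.03 and 4.55 ± 1.04, which rested on vehicle males: among females alone they were -0.77 and -0.12. Of the 22 mitosis genes, 20 were lower in fibroblasts than in keratinocytes and 9 in immune cells, with Mki67 at 0 to 0.458 CPM in vehicle fibroblasts and 92.6 to 603 in vehicle keratinocytes.

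Of 23 tested microtubule-associated genes, 7 were higher and 1 lower in fibroblasts than in keratinocytes, where 20.6% of all genes were higher. Of the same 23, 4 were lower and none higher in immune cells than in fibroblasts, where 7.91% of all genes were lower. Map1b was 4.81 ± 0.86 higher in fibroblasts than in keratinocytes (adjusted p = 0.000135) and lower in immune cells than in fibroblasts (-3.97 ± 0.76, adjusted p = 0.000373). Among the tubulin genes outside the 10, Tubb4a (listed as Tubb4) had 3890 reads in vehicle immune cells and 5716 in fibroblasts, against 4 in keratinocytes (adjusted p = 5.79e-05 and 2.84e-05). Together with Tubb2b and Tubb3, Tubb4a was a beta tubulin nearly without reads in keratinocytes.

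The patterns of the 10 genes over the 9 group means of log2(CPM + 1) were compared among 11994 genes, as a description without a test. Among the 10, Tubb2a and Tubb6 had the highest Pearson r with each other (0.938), and both ran against Tubg1 (-0.939 and -0.858). The genes most like Tubb6 were Fcgrt (0.994), Selenbp1 (0.991) and Elmo1 (0.99), those most like Tubb2a were Arap1 (0.99), Rab11fip5 (0.978) and Ssh2 (0.975), and those most like Tuba1a were Myd88 (0.986), Selm (0.975) and Tcf25 (0.973). Tubb5 had lower best matches, H3f3b (0.941), Nup133 (0.904) and Psma2 (0.902). Each value rests on 9 points that share their sort, depth and libraries, so no p is given.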

How the data were processed

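About 500 ng of total RNA from sorted skin cells went into each poly(A) TruSeq library, a kit that keeps strand, and 50-base single-end reads were made, per the labels' protocols. Per the submitters' processing notes, bcl2fastq, TopHat2 and HTSeq were used with mouse build mm9; their versions, the annotation and the strand option of the counter are not given in the sources used. The files deposited by the authors hold raw read counts by gene symbol, without any normalization. The summary lines that HTSeq appends were kept out of library sizes and tests.

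The fits used edgeR 4.0.16 under R 4.3.3 (TMM, filterByExpr, robust quasi-likelihood F-test, two-sided, 1 coefficient per group, Benjamini-Hochberg adjustment over all genes, threshold 0.05). The 3 groups of a population shared 1 fit; populations were compared over the 6 vehicle groups with both sexes weighted equally, and PTX differences with an interaction contrast. The common coefficient of variation between replicates was 1.23 (immune), 1.41 (fibroblasts) and 1.71 (keratinocytes). CPM were scaled with TMM within a population, over all vehicle libraries where populations are set side by side, and unscaled for marker sums. SE is the log2 difference divided by the square root of F. Reads per kilobase and shared 50-base windows used GENCODE M21 transcripts of GRCm38, a different build, so no coordinates are given. The 10 genes and all lists (256 of 256 entries found) were chosen with earlier results of these data known. The rule let all 10 genes be named in every comparison; from each list up to 4 genes that passed, by lowest p, or at most 2 others as values, could be named, and the 3 genes with the highest correlation over group means, with a mean of at least 10 CPM, were taken as most like a gene. Alternatives were all genes kept unfiltered, scaling by RLE or library size, DESeq2 1.42.0, limma 3.58.1 with voom quality weights, a replicate block, other control groups, 1 sex, and leaving out single libraries. The fit was tested on simulated data with less spread between replicates than these data had. That test therefore does not show what the fit can detect at the spread found here. Within each group, all pairs of libraries differed by more than counting noise.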

Additional observations from a re-analysis of the deposited data

Results flagged for a closer look

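In 12 of 76 sets of 4 libraries with reads, 1 library stood apart from the other 3 by a Dixon ratio above 0.829, taken on CPM. A rate of about 1 of 20 sets holds for normally distributed values only. CPM of rare genes are not so distributed, so the 12 of 76 cannot be set against that rate. Among abundant genes these were Tuba1b at 72.9 CPM in fibroblast vehicle male 1, Tuba1b at 173 CPM in keratinocyte vehicle female 1, Tubb2a at 139 CPM in immune vehicle male 4 and Tubb6 at 557.5 CPM in fibroblast vehicle male 3. The other 8 were rare genes read in 1 library only or mainly. Tubb3 was at 64.1 CPM in immune PTX male 3, and in fibroblasts at 9.28 CPM in vehicle female 2, 10.9 CPM in vehicle male 2 and 11.4 CPM in PTX male 3. Tubb2b was at 25.4 CPM in immune PTX male 2 and 16.7 CPM in keratinocyte PTX male 3. Tubg1 was at 28.5 CPM in immune PTX male 2 and 63.1 CPM in fibroblast PTX male 1.

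The PTX difference of Tubb2a differed between immune cells and keratinocytes by -5.93 on the log2 scale (edgeR's quasi-likelihood test, adjusted p = 0.0384). It no longer passed in 8 of 15 fits without 1 library (adjusted p up to 0.0889), nor with voom quality weights (adjusted p = 0.0777). Tubb2a was higher in all 4 PTX keratinocyte libraries than in all 3 of vehicle males, while in immune cells the groups overlapped.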

How the results depend on the processing

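Over 289 recomputed counts and shares, 256 stayed within 1.5 times the value in the text or within 1 SD, and 33 moved. The PTX comparisons called 0 tubulin genes in immune cells and fibroblasts under every setting with all libraries. In keratinocytes DESeq2 called 1, and vehicle females as the control, which differ in sex too, gave 1. Leaving out 1 library gave 0 to 1 in immune cells (1 without PTX male 2) and 0 to 1 in keratinocytes (1 without vehicle male 2). For keratinocyte females against males DESeq2 called 2. The interaction of immune cells and keratinocytes gave 0 with voom, 0 with a replicate block within population, and 0 to 1 without single libraries; that of fibroblasts and keratinocytes gave 1 with DESeq2, 1 with voom and 0 to 1 without single libraries. Immune cells against fibroblasts gave 2 with library size only, 1 with DESeq2 and 7 with voom. Immune cells against keratinocytes gave 1 among males and 2 among females, and fibroblasts against keratinocytes 1 and 3. The share of all genes called under each of these settings is not given here. Causes were not tested. As a percent of all 10 genes instead of beta tubulins, Tubb5 was at 35, 37.1 and 35.8 in immune vehicle females, vehicle males and PTX males, 37.6 in fibroblast vehicle females, and 74.1, 58.0 and 49.7 in the keratinocyte groups. As a percent of 8 beta genes, chosen after seeing the data, it moved by over 1 SD to 43.7 in immune vehicle males, 86.1 in keratinocyte vehicle females and 58.7 in keratinocyte PTX males.

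Directions that turned all belonged to differences that did not pass, apart from Tbcc (-0.12 in immune cells and -0.77 in fibroblasts, each against keratinocytes among females alone). In immune cells after PTX the log2 difference became -0.24 for Tuba1b and -0.28 for Tubb5 with library size only, -3.32 for Tubb2b, -1.15 for Tubb3 and -0.042 for Tubb5 with voom, and 0.025 for Tuba1a against vehicle females. In fibroblasts it became 0.083 for Tubg1 with both sexes as controls, and 0.086 for Tuba1c, 0.071 for Tuba4a and 0.65 for Tubg1 against vehicle females. In keratinocytes it became -0.08 for Tuba1b with no filter and 0.78 (voom) and 0.031 (vehicle females) for Tuba1c. For immune cells against fibroblasts Tubb2b became 0.29 (library size only), 1.52 (voom), 0.53 (females) and 0.074 (without the immune vehicle males), and Tubg1 0.95 (voom) and 0.071 (females). For immune cells against keratinocytes Tuba1b became -0.15 (RLE), -0.26 (library size only), -0.15 (DESeq2), -0.18 (females), -0.075 (without the immune vehicle males) and -0.063 (without the shallowest keratinocyte library), and Tuba4a 0.62 (voom) and 0.55 (females). For fibroblasts against keratinocytes Tuba1c became 0.21 (voom).

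Without single libraries the ranges that crossed 0 were, after PTX in immune cells, -9.38 to 0.89 for Tubb2b, -0.16 to 0.21 for Tubb5, -0.19 to 0.071 for Tubb6, -6.94 to 2.50 for Tubb3 and -0.039 to 0.23 for Tuba1b; in fibroblasts -7.18 to 1.52 for Tubg1 and -0.51 to 0.007 for Tuba1c; and in keratinocytes -0.71 to 0.88 for Tuba1c. They were -0.73 to 0.037 for the Tubb2a interaction of immune cells and fibroblasts. Between vehicle immune cells and fibroblasts they were -0.30 to 0.64 for Tubb2b, -0.038 to 3.94 for Tubb3 and -1.01 to 0.44 for Tubg1, between immune cells and keratinocytes -0.079 to 0.17 for Tuba1b and -0.47 to 0.60 for Tuba4a, and between fibroblasts and keratinocytes -0.51 to 0.30 for Tuba1c.

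The replicate numbers did not pair the libraries: deviations of same-numbered libraries correlated at -0.0494 to 0.115 in immune cells, -0.0445 to 0.0284 in fibroblasts and -0.0255 to 0.0192 in keratinocytes. With a replicate block, Tubb2b and Tubb3 in immune cells after PTX became -5.20 and -3.74, no tubulin gene passed after PTX, and 5 passed in each comparison with keratinocytes, Tubb3 no longer passing in fibroblasts (adjusted p = 0.158). With the block the immune calls after PTX of Tbcel, Agtpbp1, Mzt2, Kif20a, Aurkb and Kif11 did not pass (adjusted p = 0.0533 for Mzt2 to 0.119 for Kif11). Library-size scaling moved the median of all genes after PTX in immune cells from 0.0964 to -0.255. Tubb2b and Tubb3 had few reads in keratinocytes, and unique placement limits Tuba1a, Tuba1b, Tuba1c, Tubb2a and Tubb2b.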
